A study of Mus musculus with 6 samples.

Results

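The cells described here were tumour cells in which transcripts of the mitochondrial genome made up a large share of the RNA counted. They were chosen from a single-cell RNA-seq matrix by 3 limits: at least 500 detected genes, more than 20% of the cell's unique molecular identifiers (UMIs, one for each captured RNA molecule) from the mt- genes, and at least 50 UMIs of Sftpc, the surfactant protein C gene of alveolar type II (ATII) cells, per 10000. Of the 16017 cells in the matrix, 13936 had at least 500 genes, and 1662 of these met all 3 limits, which is 11.9% (95% exact binomial interval 11.4 to 12.5%). They are called high-share cells. The comparison cells, called low-share cells, met the same gene and Sftpc limits with at most 10% mt- UMIs and numbered 8897. Another 1417 cells lay between 10 and 20%.

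The cells were neoplastic cells sorted from lung tumours of 6 mice, 3 in the Restored and 3 in the NonRestored cohort. All mice carried Rosa26LSL-tdTomato and homozygous Lkb1XTR, a gene-trap allele of Lkb1 (Stk11) with a GFP reporter, and Cre delivered by lentivirus into the trachea started the tumours, switched on tdTomato and trapped Lkb1. The tumours grew for 20 weeks before 2 weeks of treatment. The 3 Restored mice also carried FLPo-ERT2, a recombinase that removes the trap after tamoxifen (4 mg doses), and received tamoxifen. Of the NonRestored mice, 1 received tamoxifen without FLPo-ERT2, 1 received vehicle without FLPo-ERT2 and 1 received vehicle with FLPo-ERT2. The labels give 4 male and 2 female mice. The matrix pools all cells, and no link from cells to mice was used here, so the pool is 1 sample. No test between conditions or mice was made, no p-value is given, and every interval covers counting error only. For every ratio below, a different mix of mice in the 2 groups and a difference within mice cannot be told apart.

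Mammalian mitochondria carry their own small genome, whose messenger RNAs are made and translated inside the organelle behind a double membrane. Most other messenger RNAs leave the nucleus and are translated by ribosomes free in the cytosol or bound to the endoplasmic reticulum (ER), while some long non-coding RNAs stay in the nucleus. A high share of mitochondrial UMIs is used widely as a sign of damaged or dying cells in droplet data, and cells above a limit are often removed.

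The high-share cells held more mt- UMIs per cell than low-share cells, with overlapping ranges, and far fewer UMIs of the other genes together. The limits on the mt- share set this contrast in part, because the share is formed from these same counts. They held a median of 1189 mt- UMIs (quartiles 898 and 1581), against 838 (524 and 1183) in low-share cells. Their UMIs of all other genes had a median of 2255 (1452 and 3327), against 21258 (13845 and 29619), and their detected genes a median of 1096 against 4382. Per cell, the mean of mt- UMIs was 145% of that in low-share cells and the mean of other UMIs 11.7%. Of the high-share cells, 74.5% lay between the 10th and 90th percentile of the low-share cells in mt- UMIs, whereas 98.4% lay under the 10th percentile in other UMIs. The share of mt- UMIs, which chose the cells, had a median of 32.3% in high-share and 3.58% in low-share cells. All levels below leave the mt- genes out of the totals and are CPM, UMI counts per 1000000 non-mt UMIs, summed over the cells of a group: 4412835 non-mt UMIs for high-share and 201896152 for low-share cells.

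**Figure D1:**
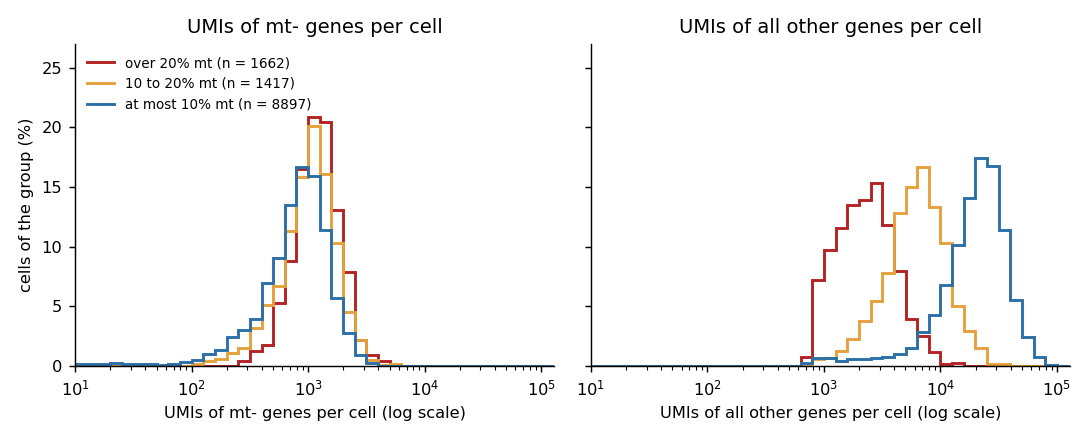
Distribution of UMIs of mt- genes (left) and of all other genes (right) per cell, on log axes, as the percent of the cells of each group, for high-share cells (over 20% mt, n = 1662), cells between 10 and 20% (n = 1417) and low-share cells (at most 10%, n = 8897). The 3 curves overlap widely for the mt- genes, with medians of 1189, 1044 and 838, and are set apart for the other genes, with medians of 2255, 6332 and 21258. The limits on the mt- share set this contrast in part.

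Reporter and lineage genes were set beside the label of tumour cells. The sort took tdTomato-positive cells and excluded blood and endothelial cells. It set the values of TdTomato and of those markers in part, so they cannot check the label. TdTomato, the reporter that Cre switches on, stood at a median of 49.8 per 10000 non-mt UMIs in high-share cells (quartiles 29.6 and 80.4) and 64.3 (46.9 and 92.4) in low-share cells, so the ranges overlapped widely. Droplets with under 500 genes and a high mitochondrial share had a median of 47.5 (20.1 and 87.5), so these levels do not by themselves separate RNA of the cells from free RNA. The 12 ATII markers, Sftpc apart, summed to 42250 CPM against 59441. Markers of cells that the sort removes were near 0 in both groups: 10 immune markers summed to 8.84 against 6.85 CPM, 6 endothelial markers to 17.0 against 16.1, and 5 globin and other erythroid markers to 0 against 0.0693. The 6 fibroblast markers summed to 59.8 against 59.1 CPM.

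The 13 mitochondrial messenger RNAs kept nearly the same proportions to each other. The share of each gene among all mt- UMIs in high-share cells was between 0.711 and 1.13 times its share in low-share cells, and only 4 of the 13 differed by more than 1.1-fold. The most abundant, mt-Co3, a subunit of cytochrome c oxidase, gave 21.6% of mt- UMIs in high-share and 20.2% in low-share cells. mt-Atp6, a subunit of the ATP synthase, gave 18.9% against 18.1%, and mt-Co1, the catalytic subunit of cytochrome c oxidase, 15.4% against 17.0%. Per cell, every one of the 13 was at or above the low-share mean, from 1.03 times (mt-Atp8) to 1.63 times (mt-Nd6).

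The transcripts whose shares moved most were scarce ones. mt-Nd6 is the only one of the 13 on the other strand of the mitochondrial genome (chrM:13552-14070, minus strand), and its share was 1.13 times that of low-share cells (95% interval 1.06 to 1.20), on 1274 and 4189 UMIs. mt-Nd5, which lies opposite its end on the plus strand, had a share 1.16-fold lower (1.14 to 1.18). mt-Nd4l had a share 1.11-fold lower (1.09 to 1.13). The largest difference was that of mt-Atp8, whose share was 1.41-fold lower (1.35 to 1.47), on 2578 and 13419 UMIs. In the cells with little Sftpc, described further on, mt-Nd6 went the other way, with a share ratio of 0.959. The ratios of mt-Nd5, mt-Nd4l and mt-Atp8 there were 0.855, 0.874 and 0.811. mt-Atp8 (chrM:7766-7969, mm10) and mt-Atp6 (chrM:7927-8607) are read from the same RNA in different frames, and the end of the mt-Atp8 reading frame is also the start of mt-Atp6, so a read there belongs to both genes. The last bases of mt-Atp8 in the GENCODE transcript are shown with the 43 bases that it shares with mt-Atp6 in capitals (chrM:7907-7969, plus strand).
mt-Atp8: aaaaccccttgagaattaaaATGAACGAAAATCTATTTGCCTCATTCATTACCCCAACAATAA

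**Figure D2:**
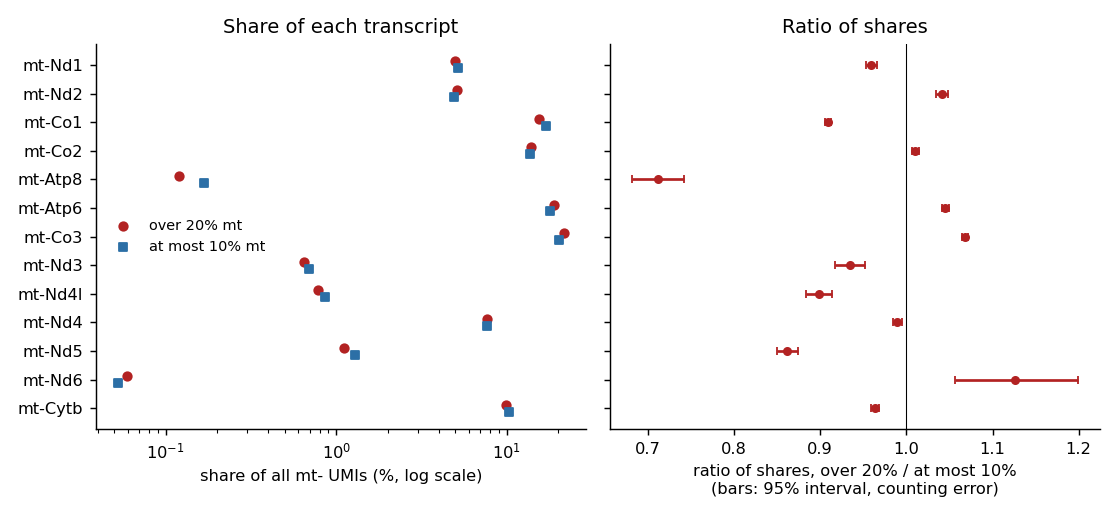
Left, the share of each of the 13 mt- transcripts among all mt- UMIs (log axis) in high-share (over 20% mt, circles) and low-share cells (at most 10% mt, squares). Right, the ratio of these shares with its 95% interval for counting error. The points of the 2 groups nearly coincide, and the ratios lie between 0.711 for mt-Atp8 and 1.13 for mt-Nd6.

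Among the other genes, 8202 had a mean level of at least 10 CPM over both groups and were compared. A gene was called higher where its level was at least 1.5 times that in low-share cells, and lower where it was at most 1/1.5 of it. At these limits 3142 genes (38.3%) were higher and 1833 (22.3%) lower, and the median gene was 1.20 times its level in low-share cells (log2 0.26). At a limit of 2-fold, 1880 genes (22.9%) were higher and 799 (9.74%) lower. Relative to that median gene, 2349 were higher by 1.5-fold and 2527 lower. Because non-mt UMIs per cell were 11.7% of those in low-share cells, a gene called higher can still have fewer UMIs per cell: the median gene had 14.0% of its low-share UMIs per cell, 43 of the 8202 genes had at least 50%, and only 2 had at least 100%. Values given below as at the same depth are against the 375 low-share cells with as few UMIs as most high-share cells, which are described further on. Over all 8455 genes compared at the same depth, 17.5% were higher and 19.2% lower.

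The transcripts kept best were those that overlap ribosomal RNA. All 4 members detected were higher, and their summed level was 41563 CPM against 5595. Gm26917 (chr17:39843013-39846341, plus strand, a long non-coding RNA) was 12.5-fold higher (95% interval 12.03 to 12.99), at 751 against 60.1 CPM, and had 2.00 UMIs per high-share cell against 1.36. Gm42418 (chr17:39846958-39848788) was 7.82-fold higher (7.78 to 7.86) and close to level per cell, at 105 against 115 UMIs. Both are annotated as long non-coding RNAs in a stretch of chromosome 17 that carries a copy of the ribosomal RNA precursor. Lars2, the mitochondrial leucyl-tRNA synthetase, whose gene also contains ribosomal RNA sequence, was 6.87-fold higher (6.56 to 7.19). AY036118, which lies on the opposite strand within Gm42418, was 1.82-fold higher (1.76 to 1.88). Whether the counting used strand is not given in the sources used here, so the split between these overlapping genes is uncertain. At the same depth Gm26917 was 3.83-fold, Lars2 3.06-fold and Gm42418 2.59-fold higher, and AY036118 was 1.93-fold lower.

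The assay primes reverse transcription from runs of A, so that a transcript without a poly(A) tail can be captured at an internal one. The longest run of A in each of 3 annotated non-coding transcripts, all higher than in the low-share cells together, is shown in capitals with flanks (GENCODE transcripts, mm10). Malat1 is from chr19:5795964-5796023 on the minus strand, Gm42418 from chr17:39847139-39847200 and Gm26917 from chr17:39845108-39845167. Whether priming took place at these runs was not tested. Malat1 holds a run of 12, whereas the longest in Gm42418 is 6 and in Gm26917 is 4.
Malat1: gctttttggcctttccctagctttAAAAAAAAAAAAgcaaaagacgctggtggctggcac
Gm42418: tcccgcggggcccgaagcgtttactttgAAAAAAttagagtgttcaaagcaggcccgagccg
Gm26917: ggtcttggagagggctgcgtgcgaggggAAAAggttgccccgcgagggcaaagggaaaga

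Long non-coding RNAs of the nucleus were the next best kept. All 8 of the listed nuclear RNAs that could be compared were higher, with a median of 4.00-fold, and they made up 154755 CPM against 40042. Malat1, an abundant RNA of nuclear speckles, accounted for most of this, at 136909 against 35062 CPM, with a 95% interval of the ratio from 3.89 to 3.92. Per cell, Malat1 had a median of 1352 per 10000 non-mt UMIs in high-share cells (5th and 95th percentile 322 and 2703) against 324 (111 and 1166), and 60.8% of high-share cells lay above the 95th percentile of low-share cells. In UMIs per cell it was still lower, at 364 against 796. Meg3 and Mirg, non-coding RNAs of the imprinted Dlk1-Dio3 locus, were 4.18-fold (4.14 to 4.22) and 5.07-fold (4.69 to 5.48) higher. Neat1, the scaffold of paraspeckles, was 2.90-fold higher (2.86 to 2.93), Snhg11 5.86-fold (5.39 to 6.37), Airn 2.39-fold (1.97 to 2.88) and Tug1 2.11-fold (1.87 to 2.37). Snhg11 is named as a host of small nucleolar RNAs and is annotated as protein-coding. The 3 compared members of a separate list of such hosts were within 1.5-fold, from 0.724 for Snhg6 to 1.42 for Snhg12. At the same depth, 4 of the 8 nuclear RNAs were higher and 1 lower, with Snhg11 at 1.76 times, Malat1 at 1.06 times, Neat1 at 1.19 times, Tug1 at 0.929 times and Airn at 0.653 times.

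Among protein-coding genes, those for the splicing machinery stood out. Of 28 splicing and nuclear speckle factors, 21 were higher and 1 lower, with a median of 2.33-fold. Luc7l2, a U1-associated splicing factor, was 4.16-fold higher (4.03 to 4.28), Pnisr 3.97-fold (3.80 to 4.15) and Son, a speckle scaffold, 3.79-fold (3.67 to 3.91). The exception on the low side was Hnrnpa1, 1.65-fold lower. At the same depth 13 of the 28 were higher and none lower, with Luc7l2 at 1.86 times, Pnisr at 1.58 times, Son at 1.58 times and Hnrnpa1 at 0.938 times. Of the 12 genes with the largest ratios outside the lists, Prpf4b, a kinase of the spliceosome, was 4.44-fold higher (4.26 to 4.63), Prpf39 4.38-fold (4.06 to 4.72), Ccnl2, a cyclin of nuclear speckles, 4.20-fold (4.01 to 4.41) and Ints6l, a paralog of an Integrator subunit, 5.67-fold (5.30 to 6.05). Also among these 12 were Fam193b (4.99-fold), B830012L14Rik (4.81-fold, a non-coding transcript of chromosome 12), Snx29 (4.69-fold), Dock4 (4.27-fold, an exchange factor for Rac), Arhgef38 (4.27-fold), Zcchc7 (4.27-fold) and Fnbp4 (4.21-fold). Of those named here, all except Fnbp4 (1.36 times) were also higher at the same depth, B830012L14Rik by 4.13-fold, Ints6l 3.16-fold, Arhgef38 2.85-fold, Dock4 2.13-fold, Snx29 2.08-fold, Fam193b 1.99-fold, Ccnl2 1.87-fold, Prpf39 1.86-fold, Zcchc7 1.63-fold and Prpf4b 1.53-fold.

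Transcripts of many housekeeping proteins were lower. Of 80 cytosolic ribosomal protein genes, 73 were lower and none higher, with a median 2.09-fold lower, and their summed level was 60745 CPM against 125689. Rpl10 was 3.42-fold lower (713 against 2438 CPM, and 1.83-fold at the same depth), Rpl15 3.09-fold and Rpl9 3.07-fold. At the other end, Rpl38 (0.931 times), Rps15 (0.847 times) and Rpl36 (0.798 times) were within 1.5-fold. Of 25 translation factors, 15 were lower and 1 higher; Eif3i was 2.92-fold lower (1.83-fold at the same depth) and Eef1b2 2.74-fold lower, and the exception was Eif4a2, an RNA helicase, 1.95-fold higher (1.88 to 2.02) and at 1.41 times at the same depth.

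Nuclear genes for mitochondrial proteins were lower as the ribosomal genes were. Of 76 nuclear-encoded genes of the respiratory chain and ATP synthase, 67 were lower and none higher, with a median 2.08-fold lower. Atp5c1, the gamma subunit of the ATP synthase, was 3.11-fold lower, Uqcrc2 of complex III 2.98-fold and Ndufa8 of complex I 2.78-fold. Ndufs1, the largest complex I subunit, was level at 0.991 times (0.841 to 1.16). Of 75 mitochondrial ribosomal protein genes, 59 were lower and none higher, and of 24 genes for import and carriers, 19 were lower and none higher, with Slc25a5, an ADP/ATP carrier, 3.11-fold lower. Per cell, the median respiratory chain gene of the nucleus had 5.63% of its UMIs in low-share cells, while the genes of the mitochondrial genome had 1.03 to 1.63 times theirs, a contrast that the choice of cells by their share of mt- UMIs sets in part.

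Soluble proteins of the cytosol were lower too. Of 25 genes for small soluble proteins, 21 were lower and 1 higher. S100a6, a small calcium-binding protein, was 5.38-fold lower, at 182 against 981 CPM, and Fabp5, a fatty acid-binding protein, 3.28-fold lower, although Fabp5 was at 1.06 times at the same depth. Of 15 glycolysis genes, 8 were lower, among them Eno1 (3.45-fold), Pgk1 (3.38-fold) and Pgam1 (2.81-fold), and the only one higher was Hk2, a hexokinase, at 2.55-fold (2.33 to 2.79), or 1.46 times at the same depth. Of 17 cytoskeleton genes 14 were lower, and of 37 proteasome genes 29 were lower, with none higher in either list. Of 10 genes of antigen presentation (MHC class I and II), 7 were lower and none higher. At the same depth only 1 was lower, where 19.2% of all genes were lower. The coding sequence of S100a6 (chr3:90613767-90614322, plus strand, 270 bases joined over its exons, start and stop codon in capitals) is printed as a case of a short lost message.
S100a6: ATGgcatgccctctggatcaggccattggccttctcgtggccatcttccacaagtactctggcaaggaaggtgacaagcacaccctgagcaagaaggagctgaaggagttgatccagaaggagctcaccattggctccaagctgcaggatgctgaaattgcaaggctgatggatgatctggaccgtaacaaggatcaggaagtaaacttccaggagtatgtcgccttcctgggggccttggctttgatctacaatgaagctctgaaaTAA

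The 12 genes with the smallest ratios outside the lists had coding sequences of 312 to 1704 bases. Cavin3, a caveolar coat protein, was 6.12-fold lower, Tspan8, a tetraspanin, 4.12-fold, Prdx4, an ER peroxiredoxin, 4.08-fold and Anxa5, which binds phosphatidylserine, 4.04-fold. S100a14 and Clu, the secreted chaperone clusterin, were 3.73-fold lower each. Mgst3 (3.62-fold), Ndnf (3.53-fold), Stmn1 (3.44-fold), Cd151 (3.18-fold), Sparc (3.15-fold) and Eif3m (3.15-fold) completed the 12. At the same depth Cavin3 was 7.12-fold lower, Sparc 6.23-fold, Ndnf 5.88-fold, Anxa5 4.71-fold, S100a14 3.79-fold, Clu 3.47-fold and Mgst3 3.27-fold. Stmn1 was 3.05-fold lower there, Prdx4 2.96-fold, Tspan8 2.94-fold, Cd151 2.60-fold and Eif3m 2.22-fold. The low-share cells of that depth also held more fibroblast and alveolar type I transcripts, whose part in these values was not tested.

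Genes of the ATII programme split by gene, while those of the ER were mostly lower. Of 18 ATII secretory and surfactant genes other than Sftpc, 10 were lower, 3 higher and 5 within 1.5-fold. Lyz2 (lysozyme) was 2.01-fold lower, Sftpa1 1.91-fold, Sftpd 1.84-fold and Ctsh, a cathepsin that processes surfactant proteins, 2.96-fold. At the same depth Ctsh stayed lower (1.98-fold), but Lyz2 was 2.00-fold and Sftpa1 1.52-fold higher, Sftpd was at 1.01 times, and 11 of the 18 genes were higher and 1 lower. Sftpb was level, at 12337 against 11481 CPM (1.07 times, 1.07 to 1.08). Abca3, the lipid transporter of lamellar bodies, was 2.14-fold higher (2.07 to 2.21), Hc (complement C5) 3.15-fold (3.06 to 3.24) and Slc34a2, a phosphate transporter, 1.52-fold (1.49 to 1.54). Sftpc, which the rule used, stood at 68152 against 141973 CPM. Of 18 ER chaperones and folding enzymes, 13 were lower and none higher, with Sdf2l1 6.43-fold and Manf 2.97-fold lower (2.61-fold and 1.79-fold at the same depth) and the long Hyou1 level at 1.05 times. Of 20 genes of ER translocation, 14 were lower, with Spcs1, a signal peptidase subunit, 3.42-fold lower, and Sec61a1, the channel itself, was the exception at 1.59-fold higher. At the same depth 9 of the 18 and 7 of the 20 were lower and none higher, and Sec61a1 was at 1.38 times. Of 22 lysosomal and V-ATPase genes, 13 were lower and 1 higher. At the same depth 5 were lower and 1 higher, near the 19.2% of all genes that were lower there.

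Markers of some other epithelial states were lower, whereas the 2 club cell markers compared, Scgb1a1 (1.27 times) and Cyp2f2 (0.732 times), were within 1.5-fold, though at the same depth they were 2.24-fold higher and 1.77-fold lower. All 8 markers of the transitional keratin-rich state were lower, among them Cldn4 (7.48-fold, on 17 UMIs in high-share cells), Sprr1a (5.26-fold, 24 UMIs, and 1.58-fold at the same depth with an interval of the ratio from 0.286 to 1.51) and Krt19 (3.04-fold). Of 8 alveolar type I markers compared, 6 were lower, with Hopx 4.71-fold lower (11.7-fold at the same depth), and Vegfa was 2.44-fold higher (1.08 times at the same depth). Ube2c, a mitotic ubiquitin-conjugating enzyme, was 12.8-fold lower on 8 UMIs, and Top2a, a topoisomerase of dividing cells, was 1.69-fold lower, a direction that turned when every cell weighed the same (log2 0.18) and when cells were thinned to 1000 non-mt UMIs (log2 0.26). The other two proliferation markers compared, Mki67 (0.726 times) and Cenpf (0.920 times), were within 1.5-fold.

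Early response genes did not move as a group. Of 29 immediate early and stress genes, 9 were higher, 2 lower and 18 within 1.5-fold, with a median of 1.24-fold. Over all genes compared, 38.3% were higher and 22.3% lower, with a median of 1.20 times. Fosb was 2.94-fold higher (2.89 to 2.98) but at 1.32 times at the same depth, Klf6 2.60-fold (1.58 times at the same depth) and Egr1, at 1949 against 779 CPM, 2.45 to 2.56-fold, whereas Fos was at 1.23 times (1.21 to 1.25). Hmox1, haem oxygenase, and Bax, a pro-apoptotic factor, were lower, by 1.64-fold and 1.83-fold, with Hmox1 at 0.889 times at the same depth.

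The 2 reporters and the gene that the study switches were measured at low depth except for TdTomato. TdTomato was within 1.5-fold, at 6137 against 7356 CPM. Stk11 was 2.13-fold higher (1.85 to 2.44) on 216 UMIs, at 48.9 against 23.0 CPM, and GFP, carried by the trap, was 2.33-fold lower on 52 UMIs, at 11.8 against 27.4 CPM. The mix of mice in each group and a difference within mice cannot be told apart for these genes, nor for any other gene compared here.

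**Figure D3:**
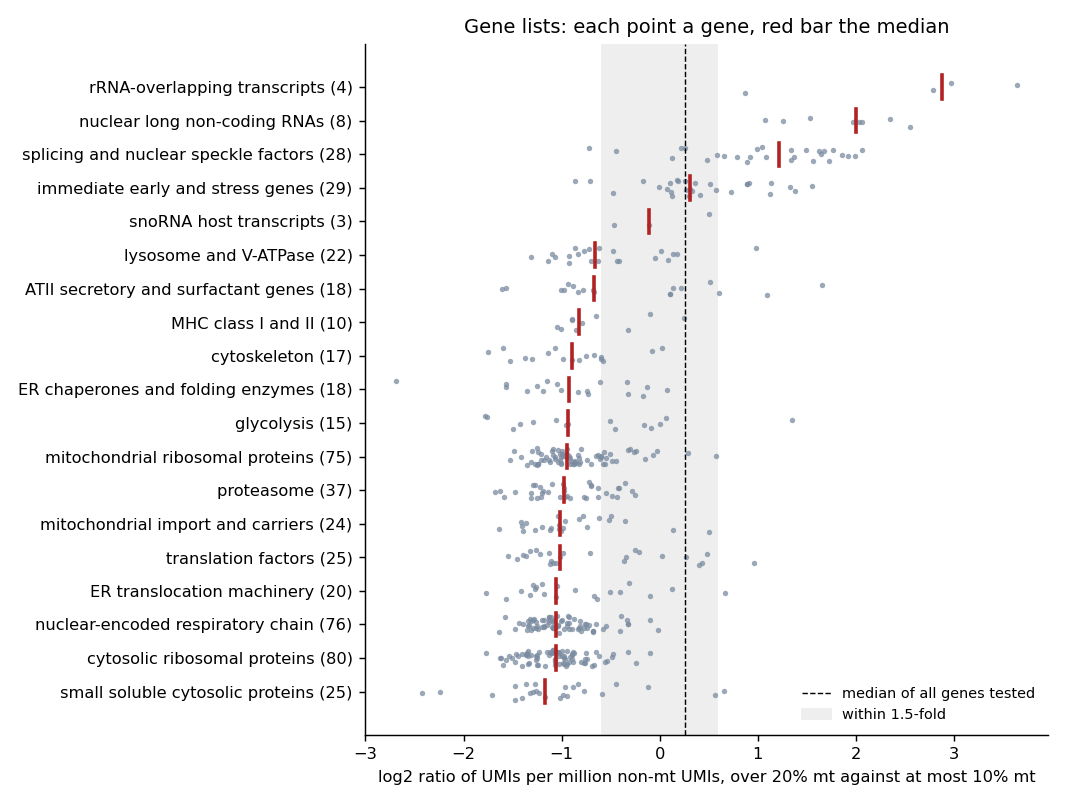
Log2 ratio of the level in high-share to that in low-share cells for each compared gene of 19 lists (points), with the median of the list (red bar), the number of genes compared in parentheses, the median of all 8202 genes (dashed line) and the range within 1.5-fold (grey). Lists of nuclear RNAs and splicing factors lie to the right, and 14 lists, those of cytosolic, ER, lysosomal, ATII secretory, antigen presentation and nuclear-encoded mitochondrial proteins, have medians between −1.17 and −0.66.

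The feature that the kept and lost messages shared most widely was length. Over 8101 protein-coding genes compared, Spearman's rho across genes between the log2 ratio and coding length was 0.69, and with spliced transcript length 0.66; genes are not independent replicates, so these are descriptions. Genes with a coding sequence of up to 500 bases had a median of 1.79-fold lower, and of these 846 genes 577 were lower and 29 higher. The median was 1.37-fold lower for 500 to 1000 bases and 1.23 times for 1000 to 2000 bases. It was 1.88-fold higher for 2000 to 4000 bases and 2.32-fold higher for 4000 to 8000 bases. Above 8000 bases it was 2.84-fold higher, and of these 98 genes 94 were higher and none lower. Expressed per cell, the median gene of up to 500 bases had 6.55% of its low-share UMIs and the median gene above 8000 bases 33.2%.

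Some of the exceptions named above were long and some short. Abca3 and Hc, higher among ATII genes, have coding sequences of 5112 and 5040 bases, against 444 for Lyz2 and 744 for Sftpa1. Hk2, higher among glycolysis genes, has 2751 bases, against 1302 for Eno1. Among the ribosomal genes named, Rpl38, Rps15 and Rpl36, which were within 1.5-fold, have 210, 435 and 315 coding bases, and Rpl10, Rpl15 and Rpl9, which were lower, have 642, 612 and 576. Eif4a2 and Sec61a1, both higher, have 1221 and 1428 bases. Without the ribosomal, respiratory chain and proteasome genes, the medians by quartile of coding length were −0.64, −0.02, 0.51 and 1.05 on the log2 scale. With them the medians were −0.70, −0.04, 0.50 and 1.05. Vegfa, with 624 coding bases, was 2.44-fold higher, but at the same depth it was at 1.08 times (0.975 to 1.21).

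Other properties had smaller relations. Spearman's rho was 0.53 with the number of exons, 0.48 with the span of the gene, 0.33 with the length of the 3′ untranslated region, 0.29 with the longest run of A and −0.11 with the level. In the lowest quartile of coding length, the median log2 ratio was −0.50 in the lowest and −0.85 in the highest quartile of expression level, and in the highest quartile of coding length 0.95 and 1.19, so length separated the genes at every level. The length of the 3′ untranslated region added to coding length: in the lowest quartile of coding length the median was −0.92 for the shortest and −0.27 for the longest untranslated regions, and in the highest quartile 0.93 and 1.12. Genes with a run of at least 12 A in the transcript had a median of −0.23, 0.32, 0.79 and 1.20 in the 4 quartiles of coding length, against −0.73, −0.09, 0.44 and 1.03 for genes without. Base composition had almost no relation (rho −0.07 with GC percent).

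Genes for proteins with hydrophobic stretches lay close to others of the same length in the shortest quartile. In the lowest quartile of coding length, the median log2 ratio was −0.70 for the 153 genes whose protein had a hydrophobic N-terminus only, −0.70 for the 422 with an internal hydrophobic stretch and −0.69 for the 1459 with neither. In the next quartiles the genes with a hydrophobic N-terminus only were lower, at −0.40 against −0.10 and 0.02 in the second, 0.13 against 0.40 and 0.58 in the next, and 0.85 against 1.06 and 1.06 in the highest. By annotation class, 60 lincRNAs and 30 antisense transcripts together had a median log2 ratio of 1.40, with 60 of these 90 higher and 7 lower, against 0.25 for 8104 protein-coding genes. This difference of 1.15 went to 0.20 at the same depth.

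**Figure D4:**
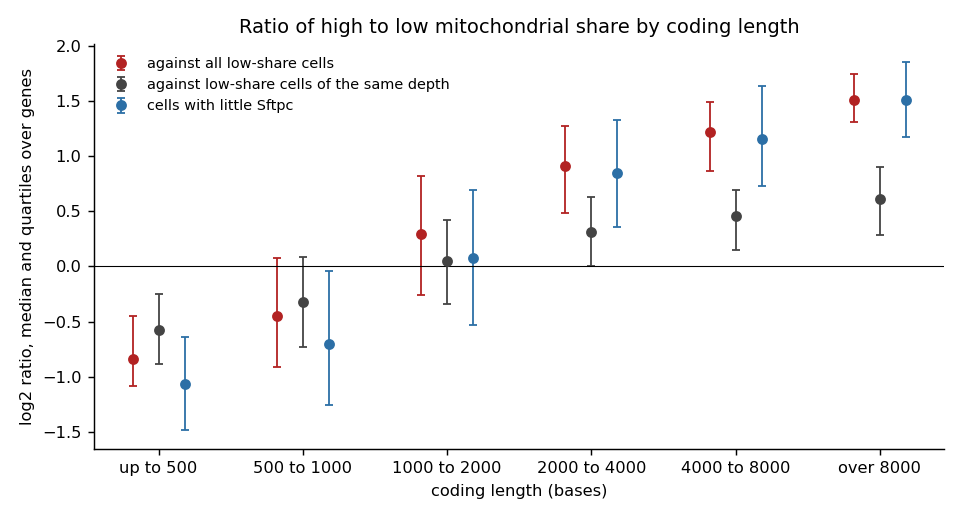
Median and quartiles over genes of the log2 ratio of high-share to low-share cells by coding length in bases, for high-share cells against all low-share cells, for those of matched depth against the low-share cells of the same depth, and for cells with little Sftpc. The median rises with coding length in all 3, from −0.84 to above 1.5, from −0.57 to 0.61 and from −1.06 to 1.51.

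The profile changed gradually over the mitochondrial share and not at the limit of 20%. Malat1 went from 33314 CPM in cells with 0 to 5% mt- UMIs to 42646 at 5 to 10%, 79519 at 10 to 20%, 129537 at 20 to 30% and 151739 at 30 to 40%, then stood at 142997 at 40 to 50% and 122239 above 50%. Gm42418 went from 3718 to 27592 at 10 to 20% and stood between 38073 and 41055 from 20% on. Gm26917 was higher in each range than in the one before, from 52.5 to 1369 CPM. Cytosolic ribosomal protein genes together went from 128360 to 56742 at 30 to 40% and stood at 72083 above 50%. Rpl10 passed through 2544, 1980, 1139, 666, 685, 815 and 1132 CPM. Sftpb stayed between 11191 and 13810 in every range. The median of mt- UMIs per cell went from 762 to 1540 over the 7 ranges and that of other UMIs from 23757 to 1125.

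**Figure D5:**
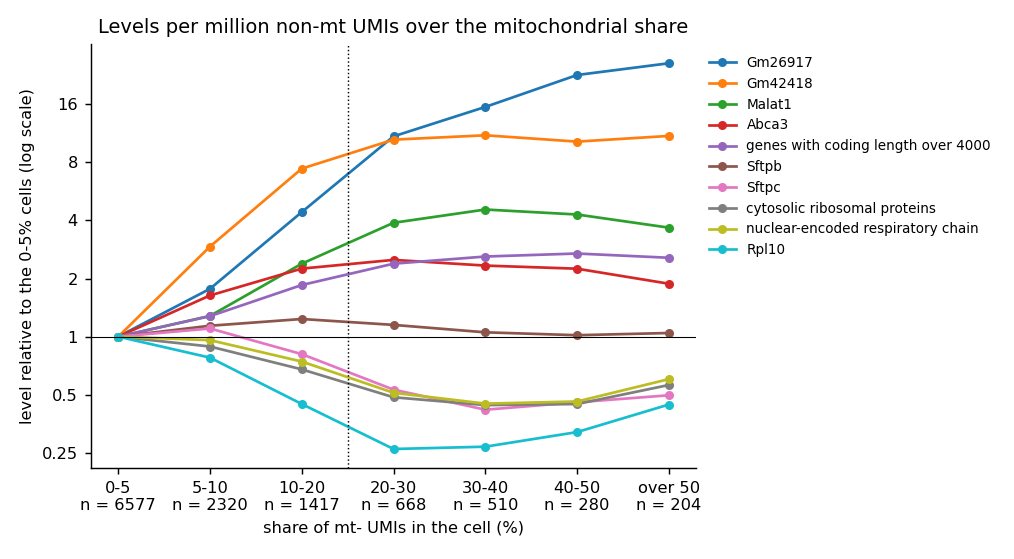
Level in CPM of 7 genes, 2 gene lists and all genes with a coding length over 4000 bases in cells binned by their share of mt- UMIs, relative to the level in the 0 to 5% cells (log axis); the number of cells is under each bin and the dotted line marks the limit of 20%. Gm26917 and Gm42418 climb most, Sftpb stays near 1, and Sftpc, Rpl10 and both lists fall to a minimum between 20 and 40% and are higher again above 50%.

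The values just inside and just outside the limits were as follows. The 155 cells with 20 to 22% mt- UMIs had 119109 CPM of Malat1 and 69634 of ribosomal protein genes, and the 182 cells with 18 to 20% had 107573 and 71166. At the Sftpc limit, the 15 high-share cells with 50 to 60 Sftpc UMIs per 10000 had 204910 CPM of Malat1, and the 17 with 40 to 50 had 195215. These few cells differed in other values, with 410 against 1423 CPM of Lyz2, 6791 against 3197 of Sftpb, 40034 against 23600 of Gm42418 and a median of 1381 against 2309 non-mt UMIs. Below the limit of 500 genes lay 1573 droplets with over 20% mt- UMIs and enough Sftpc, with a median of 72.1% mt- UMIs and 390 other UMIs. Most of their levels lay between those of the high-share and low-share cells, with 86790 CPM of Malat1, 111102 of ribosomal protein genes and 104055 of Sftpc, while Gm42418 was as high as in high-share cells, at 40397.

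Some cells had little Malat1, a smaller fraction of high-share than of low-share cells. The limit used for this was added after the data were seen. In 48 of 1662 (2.89%, 95% interval 2.14 to 3.81%), Malat1 was under 100 per 10000 non-mt UMIs. Together these 48 had 1561 CPM of Malat1, which chose them, and 146 of Neat1. They had 185419 of Sftpc, 100601 of ribosomal protein genes and 21080 of nuclear-encoded respiratory chain genes. Abca3 stood at 956 CPM in them, against 840 over all high-share cells, and Gm42418 stood at 13559. Malat1 was under the same limit in 392 of 8897 low-share cells (4.41%, 3.99 to 4.85%), and in 300 of the 1573 droplets with under 500 genes (19.1%, 17.2 to 21.1%).

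Low-share cells with as few UMIs as the high-share cells gave a further comparison. Limiting both groups to 1053 to 4576 non-mt UMIs, the 10th to 90th percentile of high-share cells, left 1328 high-share and 375 low-share cells (4.21% of the low-share cells). The medians of non-mt UMIs were 2255 and 2449 and those of genes 1096 and 1096, but the 375 cells held a median of only 35 mt- UMIs, against 1154. Against them, 1476 of 8455 genes (17.5%) were higher and 1624 (19.2%) lower.

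Malat1 was as high in these shallow low-share cells as in high-share cells, at 138664 against 146923 CPM (1.06 times), and Neat1 differed by 1.19 times (1.16 to 1.23). What remained higher in high-share cells were the transcripts overlapping ribosomal RNA, with Gm26917 3.83-fold (3.33 to 4.42), Lars2 3.06-fold (2.60 to 3.63) and Gm42418 2.59-fold (2.54 to 2.63), but not AY036118 (0.518 times), and some nuclear RNAs, with Mirg 3.76-fold (2.75 to 5.29) and Meg3 2.44-fold (2.36 to 2.52). Of 28 splicing factors 13 were higher and none lower. Ribosomal protein genes stayed lower (55 of 80, none higher), as did nuclear-encoded respiratory chain genes (51 of 76, none higher) and small soluble proteins (19 of 25, none higher). The relation with coding length stayed in direction, from a median log2 ratio of −0.57 at up to 500 bases to 0.61 above 8000.

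The median of the ATII list changed sign in this comparison, though not every member did. Of the 18 ATII secretory genes 11 were higher and 1 lower in high-share cells, with Lyz2 2.00-fold higher, Sftpa1 1.52-fold, and Sftpb 1.57-fold, while Abca3 was higher in both comparisons (2.07-fold here), Ctsh was lower in both and Sftpc was level (61265 against 61075 CPM). The shallow low-share cells also held more transcripts of other cells: 6 fibroblast markers summed to 1263 CPM against 62.2 in high-share cells, led by Mgp at 989 against 34.2, the 12 alveolar type I markers to 7190 against 2699, and the ciliated markers to 298 against 66.6. The part of these markers in the differences was not tested.

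High-share cells with little Sftpc, which share no cell with those above, showed the same direction for most of the genes called above. There were 91 cells with at least 500 genes, over 20% mt- UMIs and under 50 Sftpc UMIs per 10000, and 1756 low-share cells with the same Sftpc limit. Sftpc itself differed between them, with a median of 0.401% of non-mt UMIs against 0.117%. Of 3654 genes with a mean level of at least 50 CPM, 1184 (32.4%) were higher and 1212 (33.2%) lower. Across 3555 genes compared in both, Pearson's r of the log2 ratios was 0.90 and Spearman's rho 0.91, with the libraries and the gene properties shared between the comparisons. Of 1196 genes higher among the Sftpc-positive cells, 984 were higher here (82.3% of the first list and 86.2% of the 1141 higher here) and 2 lower. Of 1103 genes lower there, 936 were lower here (84.9%, and 79.0% of the 1185 lower here) and 6 higher.

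Ribosomal and respiratory chain genes were also lower in cells with little Sftpc. All 80 ribosomal protein genes were compared, of which 75 were lower, and 69 of 75 nuclear-encoded respiratory chain genes were lower, with none higher in either list. Gm26917 was 6.55-fold higher and Gm42418 7.26-fold higher. The median log2 ratio by coding length went from −1.06 at up to 500 bases to 1.15 at 4000 to 8000 and 1.51 above 8000. Of 24 early response genes, 3 were higher and 7 lower with a median log2 ratio of −0.18, against 0.31 among the Sftpc-positive cells. Of the reporters and Stk11, the 1 gene compared was lower, with a log2 ratio of −0.95. Of 14 ATII secretory genes, 4 were higher and 2 lower with a median log2 ratio of 0.06, against −0.68 among the Sftpc-positive cells, and Hc was 13.2-fold and Slc34a2 4.22-fold higher.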

How the data were processed

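Neoplastic cells from lung tumours of 6 mice were sorted as tdTomato-positive and negative for CD45, CD31, F4/80 and Ter119, with DAPI-positive cells excluded. They were profiled with a droplet-based 3′ single-cell assay. The authors aligned and counted reads with Cell Ranger (version 3.0.2 in the file header) on mm10 and deposited 1 matrix of UMI counts per gene and cell, 31055 features by 16017 cells and 266713311 UMIs, with no normalization. The median cell held 13985 UMIs and 3539 genes. No per-sample column was left unused (0). Barcodes were not used here, so cells were not assigned to mice and no group was tested against another.

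UMIs were summed over the cells of a group and divided by its non-mt UMIs. Ratios carry exact conditional (Clopper-Pearson) 95% intervals of 2 Poisson counts. They cover counting error only, not differences between cells or mice. Features that share a symbol with a more abundant one (36) were left out. Gene positions, biotypes, spliced lengths and coding lengths came from GENCODE M21 (99.9% of features matched), 1 principal transcript per gene. Hydrophobic stretches were found in translated coding sequences by Kyte-Doolittle hydropathy, a 9-residue window in the first 30 residues (mean at least 2.2) and 19-residue windows elsewhere (at least 1.6). Genes with a mean of at least 10 UMIs per 1000000 were compared. Genes named in the text were the 12 largest and 12 smallest ratios outside the lists at a mean of at least 50 UMIs per 1000000 non-mt UMIs, the 3 largest and 3 smallest of each list, all mt- genes, GFP, TdTomato and Stk11; Malat1, Sftpb, Mgp and Fos were added after their values were seen. Some items that this rule or the labels name are not reported here. The members and lists were chosen with earlier results of these data known. No doublet caller was run; leaving out the cells with the most genes stood in for it. The ratio code was tested on simulated counts. Python 3.11.15, numpy 2.4.6, scipy 1.17.1 and pandas 2.3.3 were used.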

Additional observations from a re-analysis of the deposited data

How the results depend on the processing

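No paired analysis was made because the matrix pools all mice and cells were not assigned to them. No replicate was left out, for the same reason. Of 1693 values of named genes past 1.5-fold over 15 alternatives, 1683 kept their direction and 1632 stayed past 1.5-fold. The count of genes higher went from 3142 to 1065 at a minimum level of 50 UMIs per 1000000, to 7060 with no minimum, to 1880 at a 2-fold limit and to 1476 against low-share cells of the same depth, and that of genes lower from 1833 to 947, 2794 and 799 under the first 3 of these. The number of high-share cells went from 1662 to 942 with at least 1000 genes, 3235 with no minimum and 994 at over 30% mt- UMIs. The number of mt- genes whose share differed by over 1.1-fold went from 4 to 2 with at least 1000 genes and to 2 at the same depth. The median log2 ratio of coding lengths over 4000 less that of up to 500 went from 2.10 to 1.58 with at least 500 Sftpc UMIs per 10000.

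Most changes came with cells of the same depth, where the group compared is 375 cells. There the same difference by coding length was 1.04, that of lincRNA and antisense over protein-coding genes 0.20 (1.15 with all cells), and mean UMIs per high-share cell were 93.4% (non-mt, by construction) and 1174% (mt-) of the low-share cells. Log2 ratios that changed sign there were those of AY036118 (−0.95), Tug1 (−0.11), Airn (−0.62), Lyz2 (1.00), Fabp5 (0.078), Sftpa1 (0.60), Sftpd (0.015) and Sftpc (0.0045), and the median of ATII secretory genes (0.71). Top2a, a proliferation marker, changed sign when every cell weighed the same (0.18) and when cells were thinned to 1000 non-mt UMIs (0.26). The cause was not tested. Low-count genes such as Ube2c, Cldn4 and GFP are limited by depth.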
